A study of Homo sapiens with 6 samples.

Results

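The 10 genes described here were PARP3, its paralogs PARP1 and PARP2, and 7 factors of classical non-homologous end joining, namely XRCC5, XRCC6, PRKDC, XRCC4, LIG4, NHEJ1 and APLF. They were picked by name among the 33841 genes of the count table, by a rule that sets no limit on measured values, with earlier results of these data known, and all 10 were listed. RNA was sequenced from LN229 cells, a proliferating human glioblastoma cell line, in 2 genotypes with 3 biological replicates each. The control cells carried intact PARP3 (labelled WT-PARP3+/+, here WT). The other cells carried a CRISPR/Cas9 disruption of PARP3 in the same line (labelled WT-PARP3-/-, here PARP3-/-). Both were grown in MEM with fetal bovine serum and gentamicin, and the labels name no drug or hypoxia. The knockout cells were derived from single cells, several clones exist, and the labels do not say which clone was sequenced or whether the 3 replicates came from 1 clone. A difference between the genotypes and a difference between a clone and its parental line therefore cannot be told apart. In bulk RNA, fewer cells that express a gene and less RNA per cell cannot be told apart either.

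Poly(ADP-ribose) polymerases (PARPs) transfer ADP-ribose from NAD+ onto proteins and nucleic acids. PARP1, PARP2 and PARP3 are the members of the family that are switched on by binding to DNA breaks. PARP1 and PARP2 build chains of ADP-ribose, whereas PARP3 adds mainly the first unit. In classical non-homologous end joining, the Ku heterodimer of XRCC5 (Ku80) and XRCC6 (Ku70) binds the broken end and brings in the kinase DNA-PKcs, the product of PRKDC. The ends are then sealed by the ligase LIG4 with its scaffold XRCC4 and the related factor NHEJ1 (XLF). APLF binds ADP-ribose, Ku and XRCC4, and PARP3 is known to work with APLF to hold the ligase complex at breaks.

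The exons that the guides were designed against are shown first, since they fix what the PARP3 count can tell. PARP3 (ENSG00000041880) lay at chr3:51942345-51948867 on the plus strand of hg38. The guides were placed in exons 2 and 5, and the junction sequences shown for the LN229 clones lie within these exons on both alleles. The design text instead names a disruption from exon 2 to exon 9, which the junctions do not match. In the GENCODE 44 transcript ENST00000398755.8, which has 11 exons, the coding part of exon 2 was at chr3:51943356-51943538 and exon 5 at chr3:51944778-51944910. Capitals mark the start codon.
PARP3 exon 2, coding part: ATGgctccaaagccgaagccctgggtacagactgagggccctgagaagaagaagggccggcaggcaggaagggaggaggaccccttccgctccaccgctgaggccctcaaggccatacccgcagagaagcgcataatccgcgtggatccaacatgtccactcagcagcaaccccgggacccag
PARP3 exon 5: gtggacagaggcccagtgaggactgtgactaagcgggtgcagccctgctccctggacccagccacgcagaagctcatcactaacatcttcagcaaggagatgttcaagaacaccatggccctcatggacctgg
Whole exons 2 to 5 held 636 of the 2337 exon bases of this transcript (27.2%), and the junctions leave parts of exons 2 and 5 in place. The remaining exons can still contribute reads to the gene count, so the count does not by itself check the genotype label. Bases deleted in PARP3-/- give no reads, so every PARP3 value of those cells, including ratios and levels per length, includes this loss. The part of this loss in the PARP3 difference was not tested.

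The stretches upstream of the annotated starts of the 3 PARP genes are shown because PARP1 and PARP3 had differences of opposite sign between the genotypes. These differences, described below, were not called without the replicate block. They were taken from the RefSeq promoter table (GRCh38.p14), in which 8 of the 10 genes had an entry, XRCC5 and PRKDC being the others. Capitals mark matches on either strand to a GC box (GGGCGG), an ETS core (CCGGAA) or an E2F core (TTCCCGC).
PARP1, chr1:226408155-226408343, minus strand: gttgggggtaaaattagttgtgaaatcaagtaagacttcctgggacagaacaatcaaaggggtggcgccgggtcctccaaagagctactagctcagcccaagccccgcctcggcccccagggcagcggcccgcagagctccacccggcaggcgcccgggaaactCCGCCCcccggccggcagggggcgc
PARP2, chr14:20343385-20343614, plus strand: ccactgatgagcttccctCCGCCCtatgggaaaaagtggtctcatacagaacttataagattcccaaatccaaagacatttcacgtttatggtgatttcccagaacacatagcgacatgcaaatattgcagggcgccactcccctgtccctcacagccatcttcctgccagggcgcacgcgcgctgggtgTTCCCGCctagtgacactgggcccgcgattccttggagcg
PARP3, chr3:51942113-51942344, plus strand: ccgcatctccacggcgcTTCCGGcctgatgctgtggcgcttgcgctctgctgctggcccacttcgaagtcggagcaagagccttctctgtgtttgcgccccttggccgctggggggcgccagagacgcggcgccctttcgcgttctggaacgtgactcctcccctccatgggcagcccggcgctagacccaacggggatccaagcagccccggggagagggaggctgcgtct
The GC box was found in the 250 bases upstream of the start of 6 of the 8 genes (PARP1, PARP2, APLF, XRCC4, XRCC6 and NHEJ1), against 42.6% of all 35116 promoters of the table. The ETS core was found in PARP3, XRCC4 and LIG4, against 14.5% of all promoters. The E2F core was found in PARP1, outside the stretch shown, and in PARP2, against 5.52%. The cyclic AMP response element (TGACGTCA) was found in PARP2 alone among the 8, outside the stretch shown, against 1.65%. PARP3 held neither the GC box nor the E2F core that its paralogs held in this window, and most promoters of the table lacked each of them. For each of the 8 genes the most upstream entry was used, whereas the shares are over all entries. These are matches of letters and not measured binding sites, and their part in the RNA levels was not tested.

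Total counts per library ranged from 29692065 to 46010369. A limit of 3 counts, at or under which a gene was treated as not detected, corresponded to 0.0673 to 0.0996 CPM (counts scaled to library size by TMM). This limit covers counting error only. Of the 33841 genes, 17144 had enough counts to be tested with edgeR's quasi-likelihood test. A gene was called at a Benjamini-Hochberg adjusted p under 0.05, and log2 fold changes are PARP3-/- over WT. Of 9 glioma and astroglial markers 7 were tested and 1 was called lower (14.3%), where 3.33% of all tested genes were called lower. This was S100B (log2 fold change −1.06, adjusted p = 0.0256). The S100B call was lost without PARP3-/- replicate 2, PARP3-/- replicate 3 or WT replicate 3 (adjusted p up to 0.119). DESeq2 called 2 of the 7 lower (S100B and OLIG2, 28.6%), where it called 3.84% of its tested genes lower. With the replicate number as a block 4 were lower (S100B, OLIG2, SOX2 and CD44, 57.1%), where 12.5% of all tested genes were called lower. VIM, NES, CD44 and EGFR were expressed in every library, GFAP reached at most 0.415 CPM and SOX9 was at or near 0. None of 6 markers of epithelial, blood, endothelial, neuronal or liver cells exceeded 0.11 CPM. Mitochondrial genes took 0.0295% to 0.0618% of the counts.

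Counts of the 10 genes covered a wide range. Levels are compared between genes only per length, as CPM per kilobase of all annotated exons (RPKM). By this length the Ku genes were the most abundant, with 168 ± 35.7 RPKM for XRCC5 and 131 ± 29.6 for XRCC6 in WT (SD, n = 3). PRKDC, at 28.5 ± 1.68 RPKM, and PARP1, at 26.2 ± 5.37, followed and overlapped each other. PARP2 (9.78 ± 1.77 RPKM), PARP3 (8.5 ± 2.10) and XRCC4 (6.99 ± 1.41) formed a lower group in which neighbours did not differ beyond their spread. LIG4, at 3.55 ± 0.549 RPKM, lay above APLF, at 2.03 ± 0.293, in each of the 3 WT libraries. NHEJ1 was at 0.00868 ± 0.00324 RPKM. By mean level the order PARP1, PARP2, PARP3 was the same in PARP3-/-, with 30.3 ± 4.67, 9.84 ± 1.66 and 6.37 ± 0.595 RPKM. In WT replicate 1, however, PARP3 (10.9 RPKM) lay above PARP2 (7.75). The PARP3 level in PARP3-/- was divided by the intact exon length, deleted bases included, so it is not strictly comparable per length. The order depends on the length used. With the longest transcript of each gene PARP1 (77.6 RPKM in WT) lay above PRKDC (61.6), and PARP3 and XRCC4 were both at 11. By that length PARP2 (20.1 ± 3.62 RPKM in WT) and PARP3 (11 ± 2.71) differed beyond their spread. With the median transcript length of the deposited table XRCC6 (205 RPKM) lay below PRKDC (1259) and PARP1 (859), and APLF (6.64) above LIG4 (6.22).

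**Figure D1:**
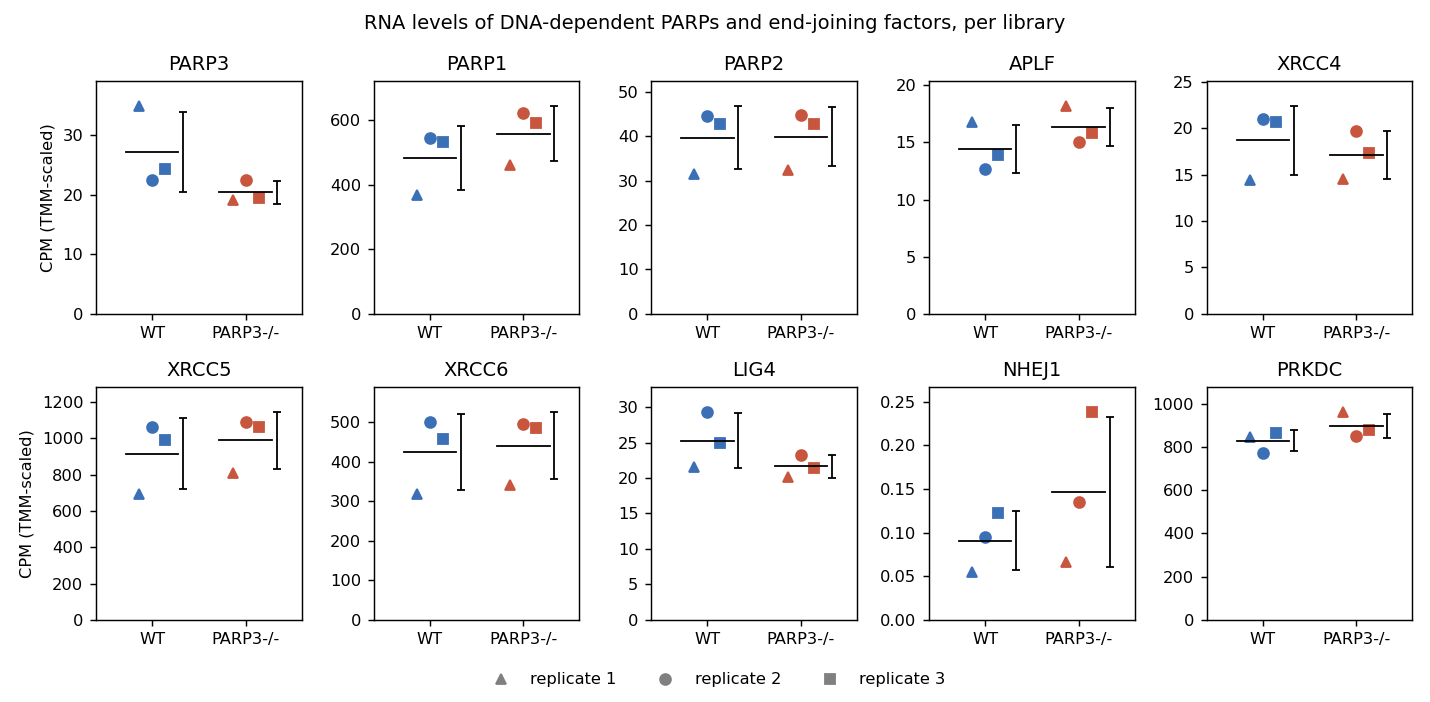
TMM-scaled CPM of each of the 10 genes in every library, with blue symbols for WT, red symbols for PARP3-/-, symbol shape for the replicate number, a line for the mean and a bar for 1 SD (n = 3). In no gene do the 3 PARP3-/- libraries lie wholly above or wholly below the 3 WT libraries, and among the 9 tested genes replicate 1 is low in both genotypes for PARP1, PARP2, XRCC4, XRCC5, XRCC6 and LIG4.

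Of the 10 genes, 9 passed the filter on low counts, and 0 of the 9 were called, where 4.7% of all tested genes were called (571 lower, 3.33%, and 234 higher, 1.36%). At an unadjusted p under 0.05 the count of these genes was also 0 with edgeR, and it was 1, PARP3, with DESeq2. DESeq2 called 0 of the 9 after adjustment, where it called 5.93% of its tested genes (3.84% lower and 2.09% higher). A stricter rule, an adjusted p under 0.001 with a log2 fold change beyond 1, called 0 of the 9 and 0.478% of all tested genes. The 3 PARP3-/- libraries lay wholly beyond the 3 WT libraries in 0 of the 9, against 22.8% of all tested genes. The median log2 fold change of the 9 was 0.05, beside −0.01 for all tested genes, with 3 below 0 and 6 above. Since the libraries of replicate 1 moved together in both genotypes, the replicate number was also fitted as a block. Replicates 2 and 3 were not clearly told apart, so the pairing within these numbers rests on the labels. With the block, 3 of the 9 were called (33.3%), PARP3 and LIG4 as lower and PARP1 as higher, where the block fit called 24.3% of all tested genes.

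**Figure D2:**
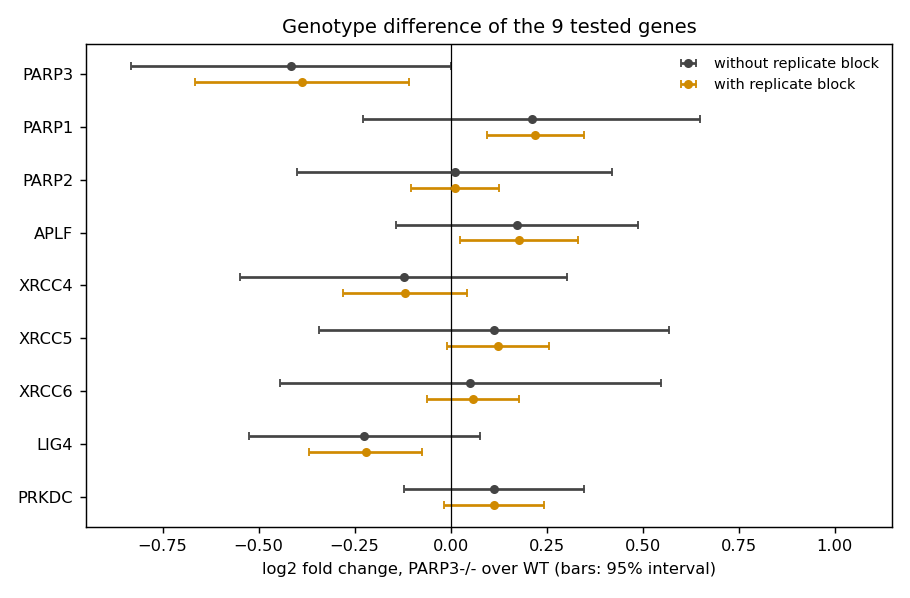
Log2 fold change, PARP3-/- over WT, of the 9 tested genes with its 95% interval, in grey without and in orange with the replicate number as a block. All 9 grey intervals reach or cross 0, and the orange intervals are narrower, with those of PARP3, PARP1, APLF and LIG4 clear of 0.

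PARP3 itself gave 34.9, 22.4 and 24.3 CPM in WT replicates 1, 2 and 3, and 19.1, 22.5 and 19.5 CPM in PARP3-/- replicates 1, 2 and 3. WT replicate 1 was the high library, and PARP3-/- replicate 2 lay within the range of WT. The log2 fold change was −0.42 (95% interval −0.83 to 0.00, adjusted p = 0.307 from edgeR), and −0.39 with the block (−0.67 to −0.11, adjusted p = 0.0469). Without replicate 1 of both genotypes, an alternative added after seeing the data, it was −0.15 (adjusted p = 0.278), and −0.15 with the block (adjusted p = 0.112), so the block call of PARP3 was lost without replicate 1. Leaving out WT replicate 1 alone gave −0.20 without the block. Between 574 and 1273 reads per library were counted on the gene.

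PARP1, the main source of poly(ADP-ribose) after DNA damage, gave 368, 545 and 533 CPM in WT and 460, 621 and 592 CPM in PARP3-/-. In each replicate number the PARP3-/- library was the higher of the pair, although PARP3-/- replicate 1 lay below WT replicates 2 and 3. The log2 fold change was 0.21 (−0.23 to 0.65, adjusted p = 0.692), and 0.22 with the block (0.09 to 0.35, adjusted p = 0.0172). Without replicate 1 it was 0.17, not called without the block (adjusted p = 0.0881) and called with it (adjusted p = 0.0135). Leaving out WT replicate 1 alone took the log2 fold change without the block to 0.048, and leaving out PARP3-/- replicate 1 alone took it to 0.33. The 2 PARP1 pseudogenes of the table together had at most 13 counts in a library, or at most 0.0595% of the PARP1 count.

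PARP2, which shares the chain-building role of PARP1 at single-strand breaks, gave 31.5, 44.7 and 42.9 CPM in WT and 32.3, 44.9 and 42.7 CPM in PARP3-/-. The libraries of the same number were almost level, and replicate 1 was low in both genotypes. PARP2 had a log2 fold change of 0.01 (−0.40 to 0.42, adjusted p = 0.99), with an interval of −0.10 to 0.13 under the block.

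Ratios between the paralogs within a library do not depend on library size. The log2 ratio of PARP2 to PARP1, in counts per kilobase, was −1.37, −1.43 and −1.46 in WT and −1.65, −1.61 and −1.61 in PARP3-/-. All 3 PARP3-/- libraries lay below all 3 WT libraries, a difference of −0.21 (exact two-sided permutation test, p = 0.1, the smallest value that 3 against 3 allows; adjusted p = 0.25 over 5 ratios). The log2 ratio of PARP3 to PARP1 was −0.88, −2.08 and −1.93 in WT and −2.07, −2.26 and −2.40 in PARP3-/-, and WT replicate 1 stood far above the other 5 libraries. Its difference was −0.61 (exact permutation p = 0.2, adjusted p = 0.333), and −0.24 without WT replicate 1. Over the 3 same-numbered pairs, the smallest exact p that can be had is 0.25.

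For the Ku heterodimer, XRCC5 gave 694, 1063 and 989 CPM in WT and 810, 1093 and 1065 CPM in PARP3-/-. XRCC6 gave 317, 500 and 458 CPM in WT and 342, 494 and 484 CPM in PARP3-/-. Replicate 1 was the low library of both subunits in both genotypes, and the genotypes overlapped. The log2 fold changes were 0.11 for XRCC5 (−0.34 to 0.57, adjusted p = 0.875) and 0.05 for XRCC6 (−0.45 to 0.55, adjusted p = 0.961), and neither was called with the block. The 5 pseudogenes of XRCC6 in the table together had at most 53 counts in a library, or 0.259% of the XRCC6 count. The log2 ratio of XRCC5 to XRCC6, the paired subunits, stayed within a narrow range, with 0.38, 0.34 and 0.36 in WT and 0.49, 0.39 and 0.39 in PARP3-/-. The PARP3-/- libraries lay above the WT libraries by 0.07 on the log2 scale on average (exact permutation p = 0.1, the smallest possible, adjusted p = 0.25).

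PRKDC, the catalytic subunit of the DNA-dependent kinase, gave 849, 774 and 866 CPM in WT and 962, 852 and 878 CPM in PARP3-/-. PARP3-/- replicate 1 was the highest library, and PARP3-/- replicate 2 lay within the WT range. Its log2 fold change was 0.11 (−0.12 to 0.35, adjusted p = 0.691), the narrowest interval of the 9 genes. Unlike the Ku genes, PRKDC was not low in replicate 1, so its log2 ratio to XRCC5 was −2.12 in WT replicate 1 and −2.17 in PARP3-/- replicate 1, and between −2.87 and −2.60 in the other 4 libraries. Between genotypes this ratio differed by −0.01 (exact permutation p = 1).

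In the ligase complex, LIG4, which seals the break, gave 21.5, 29.3 and 25.0 CPM in WT and 20.2, 23.3 and 21.4 CPM in PARP3-/-. In each replicate number the PARP3-/- library was the lower, while WT replicate 1 lay inside the range of PARP3-/-. Its log2 fold change was −0.22 (−0.53 to 0.08, adjusted p = 0.474), and −0.22 with the block (−0.37 to −0.07, adjusted p = 0.0344). Without replicate 1, LIG4 was the only one of the 9 genes called without the block, at −0.28 (adjusted p = 0.0462, where 19% of all tested genes were called, 10.1% lower and 8.91% higher), and it was again called with the block (adjusted p = 0.000565, where 29.9% were called).

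XRCC4, the scaffold that stabilises LIG4, gave 14.4, 21.0 and 20.7 CPM in WT and 14.5, 19.7 and 17.3 CPM in PARP3-/-. Replicate 1 was level between the genotypes, and PARP3-/- replicate 3 was below its WT counterpart. The log2 fold change was −0.12 (−0.55 to 0.30, adjusted p = 0.845), and XRCC4 was not called with the block (adjusted p = 0.278). The log2 ratio of LIG4 to XRCC4 differed by −0.10 between the genotypes (exact permutation p = 0.5). The first 365 bases of the annotated XRCC4 gene overlap TMEM167A on the other strand, and counts in that stretch are uncertain where strand was not used.

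NHEJ1, the XRCC4-like factor that aligns the ends, had 2, 4 and 5 counts in WT and 2, 6 and 9 counts in PARP3-/-. In both genotypes some libraries were at or under 3 counts and the gene was left out of the edgeR test. DESeq2 gave a log2 fold change of 0.70 (SE 0.88, unadjusted p = 0.424). In GENCODE 44, 2034 of its 10442 exon bases (19.5%) are shared with the gene listed as AC068946.1, on the same strand, which had 4 to 10 counts per library. Union-mode counting drops reads that fall on several genes, so the NHEJ1 value is uncertain, and the part of this overlap in the low count was not tested.

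APLF, the adaptor that links ADP-ribose to the ligase complex, gave 16.8, 12.7 and 13.9 CPM in WT and 18.2, 15 and 15.8 CPM in PARP3-/-. It was the only one of the 9 genes that was highest in replicate 1 of both genotypes, and the PARP3-/- library was the higher in each replicate number. The log2 fold change was 0.17 (−0.14 to 0.49, adjusted p = 0.637). With the block it was 0.18 (0.03 to 0.33), which did not pass the adjusted threshold (adjusted p = 0.0896).

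Replicate 1 stood apart from replicates 2 and 3 in most of these genes. Of the 9 tested genes, 6 were lower in replicate 1 than in replicates 2 and 3 of both genotypes (PARP1, PARP2, XRCC4, XRCC5, XRCC6 and LIG4), where 32.3% of all tested genes were. In XRCC6 the log2 ratio of replicate 1 to the mean CPM of the others was −0.60 in WT and −0.51 in PARP3-/-, and in LIG4 it was −0.34 and −0.14. APLF was higher, by 0.34 and 0.24, where 32.5% of all tested genes were. PARP3 was mixed, with 0.58 in WT and −0.14 in PARP3-/-, and PRKDC was within the range of the others or above it.
All 13 proliferation genes of a fixed list (DNA replication and mitosis genes such as PCNA, the sliding clamp, and MCM2 to MCM7, the replicative helicase) were also lower in replicate 1 of both genotypes. Their summed level was 2758 and 3365 CPM in replicate 1 of WT and PARP3-/-, and 5090 to 5608 CPM in the other 4 libraries. Between the genotypes 0 of the 13 were called without the block or with DESeq2. With the block 3 were called higher (MCM2, MCM5 and MCM7, 23.1%), where the block fit called 11.8% of all tested genes higher. Without replicate 1 of both genotypes 4 were called lower (MKI67, TOP2A, CDK1 and CCNB1, 30.8%), where that fit called 10.1% of all tested genes lower. The part of these differences between replicates in the results above was not tested.

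**Figure D3:**
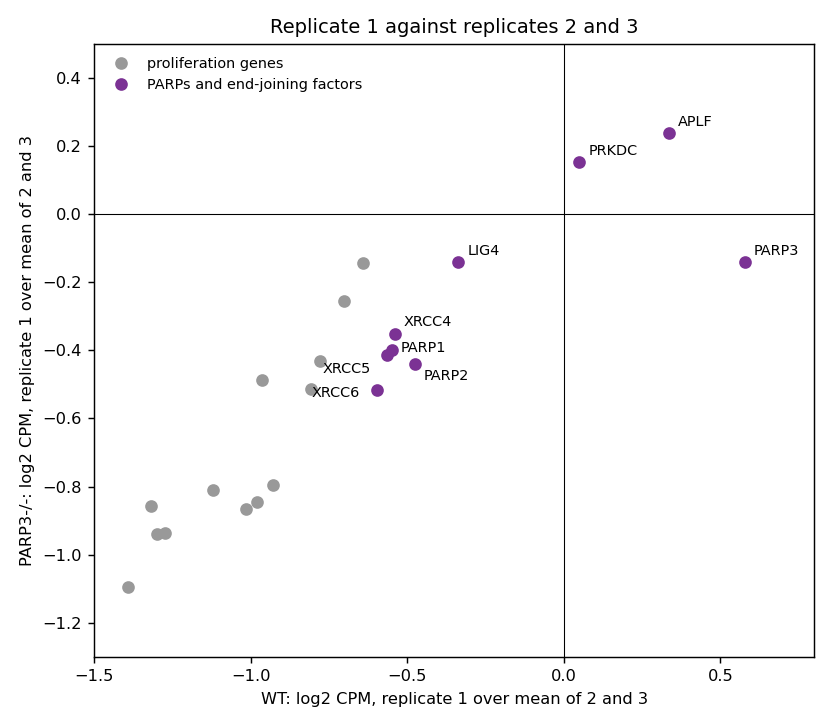
Log2 ratio of the CPM of replicate 1 to the mean CPM of replicates 2 and 3, in WT on the horizontal axis and in PARP3-/- on the vertical axis. The 9 tested genes are in purple and 13 proliferation genes in grey. All grey points and 6 of the 9 purple points lie in the lower left, where replicate 1 is low in both genotypes, and PARP3 lies alone at the lower right with 0.58 in WT and −0.14 in PARP3-/-.

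Over the 6 libraries, the genes whose pattern was most like that of PARP3 were TNFRSF9, ANKRD29 and AC008443.3, with root mean square differences of centred log2 CPM of 0.058, 0.067 and 0.081. All 3 were at low levels, between 0.365 and 2.71 CPM, and like PARP3 they were highest in WT replicate 1. None of the other 8 tested end-joining and PARP genes was among the nearest. The closest was PRKDC at rank 7292 (0.331) and the farthest PARP1 at rank 14113 (0.497). The ranking covered the 17144 tested genes without PARP3 itself, so rank 7292 is not near either end.

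The log2 fold change of PARP3, −0.42, was set beside those of its neighbours on the chromosome. The PARP3 value also includes the loss of its deleted exon bases, described above. Of the 37 other tested genes that start within 1 Mb of PARP3, 35 had a log2 fold change below 0, against 8790 of all 17144 tested genes. Their median was −0.25, and it was −0.28, −0.23 and −0.22 in the pairs of replicates 1, 2 and 3. Within 5 Mb, 136 of 148 genes were below 0, with a median of −0.22. Without the block 1 of the 37 was called (2.7%, where 4.7% of all tested genes were), RAD54L2, a chromatin remodeller of the RAD54 family, at −0.47 (adjusted p = 0.0103). Its call was lost without PARP3-/- replicate 2, PARP3-/- replicate 3 or WT replicate 3 (adjusted p up to 0.0855). With the block 21 of the 37 were called lower (56.8%) and 1 higher, where the block fit called 12.5% of all tested genes lower and 11.8% higher. Without replicate 1 of both genotypes and without the block, 13 were lower (35.1%) and 1 higher (2.7%). That fit called 10.1% of all tested genes lower and 8.91% higher. DESeq2 called 4 lower (10.8%) and 0 higher, where it called 3.84% of its tested genes lower and 2.09% higher. The copy number of this region was not measured here, and its part in these values was not tested.
The nearest tested genes on the left were TEX264, an endoplasmic reticulum receptor for autophagy (log2 fold change −0.18, adjusted p = 0.46, 0.0202 with the block), and RRP9, a protein of the U3 small nucleolar particle. RRP9 gave 59.6, 54.2 and 52.4 CPM in WT and 60.8, 73.2 and 72.7 CPM in PARP3-/-. Every PARP3-/- library lay above every WT library, as in 10.8% of all tested genes. The log2 fold change was 0.32 (SE 0.10, adjusted p = 0.166, 0.0137 with the block). On the right, PCBP4, an RNA-binding protein, went from 124 ± 10.9 CPM in WT to 87.3 ± 15 in PARP3-/- (log2 fold change −0.50, adjusted p = 0.115, 0.000125 with the block). ABHD14B, a serine hydrolase family member, had −0.17 (adjusted p = 0.307, 0.0461 with the block). RRP9 and ABHD14A (0.07) were the only genes of the 37 above 0. RAD54L2 and ABHD14A are named because of their values.

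**Figure D4:**
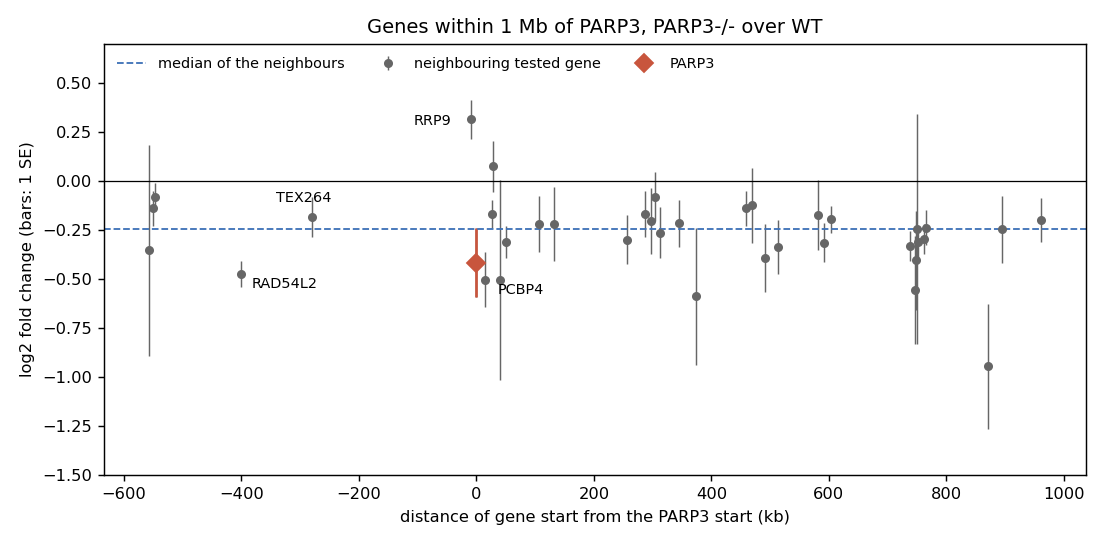
Log2 fold change, PARP3-/- over WT, of the tested genes that start within 1 Mb of PARP3 against the distance of their start from that of PARP3 in kilobases, with bars of 1 SE. PARP3 (red, −0.42) and 35 of its 37 neighbours lie below 0, RRP9 next to it lies at 0.32, and the dashed line marks the median of the neighbours, −0.25.

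Around PARP1, 3 of 18 tested genes within 1 Mb had a log2 fold change below 0 and the median was 0.15, close to the 0.21 of PARP1 itself. Its value was 0.15, 0.14 and 0.18 in the 3 same-numbered pairs. Of the 18 genes 0 were called without the block, where 4.7% of all tested genes were. With the block 1 was lower (5.56%) and 5 were higher (27.8%). The block fit called 12.5% of all tested genes lower and 11.8% higher. Around LIG4 only 4 genes were tested, with a median of 0.19, of the opposite sign to that of LIG4 (−0.22). In the pairs of replicates 1, 2 and 3 this median was 0.54, −0.15 and −0.03, and so above 0 in replicate 1 only. It was 0.07 within 500 kb and 0.05 within 5 Mb. The medians around the other genes lay between −0.24, around PRKDC with 6 genes, and 0.18, around XRCC5 with 13.

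RRP9 and PARP3 start 441 bases apart on opposite strands. Such divergent protein-coding partners, with starts within 1000 bases, were annotated for 6 of the 10 genes, where 15% of all listed protein-coding genes had one. DESI1, 120 bases from XRCC6, went from 46.0 ± 2.58 CPM in WT to 40.7 ± 0.732 in PARP3-/- (log2 fold change −0.18, adjusted p = 0.3, 0.0399 with the block). TMEM167A, which overlaps the XRCC4 start, went from 121 ± 8.13 to 107 ± 2.27 CPM (−0.17, adjusted p = 0.338, 0.0427 with the block). ABHD13, 24 bases from LIG4, had −0.15 (adjusted p = 0.45), and FBXO48, 278 bases from APLF, had −0.14 (adjusted p = 0.699). MCM4, a subunit of the replicative helicase 7 bases from PRKDC, gave 212, 493 and 428 CPM in WT and 284, 502 and 492 CPM in PARP3-/-. MCM4 was thus low in replicate 1 of both genotypes, which PRKDC was not.

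The wider pathway was read from 6 lists that together held 68 genes, of which 65 were listed and 64 tested. Without the block 2 were lower and 0 higher (3.12% of the 64, beside 4.7% of all tested genes), and 5 had an unadjusted p under 0.05, as did 16.3% of all tested genes. With the block 2 were lower and 9 higher (17.2%, beside 24.3% of all tested genes), and DESeq2 called 2 lower and 1 higher, where it called 5.93% of all genes. Their median log2 fold change was 0.03, beside −0.01 for all tested genes.

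Accessory and end-processing factors of classical joining, which trim, fill and prepare the ends, had 0 of 12 tested genes called in either fit, with a median of −0.04. The 2 of smallest p were PAXX, an XRCC4 paralog that binds Ku (log2 fold change −0.12, adjusted p = 0.601), and POLM, a polymerase that fills ends (−0.24, adjusted p = 0.69). In break signalling and pathway choice, 0 of 15 were called without the block, and the median was 0.01. With the block 2 were higher (13.3%), where that fit called 11.8% of all tested genes higher. TP53BP1, the chromatin adaptor that protects ends from resection, gave 137, 117 and 125 CPM in WT and 180, 151 and 148 CPM in PARP3-/-. Every PARP3-/- library lay above every WT library, as in 10.8% of all tested genes. The log2 fold change was 0.34 (adjusted p = 0.157, 0.00081 with the block). C20orf196, now SHLD1, a shieldin subunit that acts downstream of TP53BP1, had −0.30 (adjusted p = 0.472). The other gene called with the block was PAXIP1, a partner of TP53BP1 (0.21, adjusted p = 0.0105 with the block).

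Of alternative end joining and single-strand break repair, 0 of 8 tested genes were called without the block. With the block 2 were called higher (25%), where that fit called 11.8% of all tested genes higher. Without the block 7 of the 8 had a log2 fold change above 0, with a median of 0.04. The 2 of smallest p were POLB, the gap-filling polymerase of base excision repair (0.19, adjusted p = 0.293), and CHD1L, a remodeller recruited by poly(ADP-ribose) (0.17, adjusted p = 0.484, 0.0269 with the block). LIG1, the replicative ligase, was the other gene called with the block (0.28, adjusted p = 0.00318 with the block). Factors that bind, remove or direct ADP-ribose had 0 of 8 tested genes called in either fit, with a median of 0.00. OARD1 (−0.10, adjusted p = 0.722) and MACROD1 (−0.09, adjusted p = 0.743), both hydrolases that take ADP-ribose off proteins, had the smallest p. HPF1, the cofactor that turns PARP1 and PARP2 to serine, had 22.0, 32.9 and 31.7 CPM in WT and 23.8, 31.1 and 30.9 CPM in PARP3-/-. It was low in replicate 1 of both genotypes, as were PARP1 and PARP2.

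Of 8 genes that supply NAD+, the substrate of the PARPs, 1 was called lower without the block (12.5%, where 3.33% of all tested genes were). This was NMNAT3, the mitochondrial NAD+-forming adenylyltransferase, with 39, 31 and 31 counts in WT and 0 in each PARP3-/- library. Against the limit of 3 counts per library, it was at least 10.4-fold lower in PARP3-/- (0.854 CPM on average in WT, adjusted p = 0.00523 from edgeR). NMNAT2, the cytosolic and Golgi form, was the other gene called with the block, as higher (0.52, adjusted p = 0.475, 0.0018 with the block). The block fit called 25% of this list, beside 24.3% of all tested genes. NAMPT, the rate-limiting enzyme of salvage, had 0.05 (adjusted p = 0.909).

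Among the other 13 tested PARP family members, 1 was called lower (7.69%, where 3.33% of all tested genes were called lower). The median was 0.09 for the list. PARP11, a mono-ADP-ribosyltransferase, gave 4.05, 3.79 and 2.88 CPM in WT and 1.56, 1.48 and 1.27 CPM in PARP3-/-. The PARP3-/- libraries lay wholly below the WT libraries, as in 12% of all tested genes. The log2 fold change was −1.31 (adjusted p = 0.0113). Its call was lost without PARP3-/- replicate 2 (adjusted p = 0.064) or PARP3-/- replicate 3 (0.0654). PARP4, the vault PARP, gave 96.8, 107 and 101 CPM in WT and 124, 132 and 130 CPM in PARP3-/-. For PARP4 the PARP3-/- libraries lay wholly above the WT libraries, as in 10.8% of all tested genes. PARP4 had 0.34 (adjusted p = 0.0514, 0.000458 with the block, 0.00557 with DESeq2). PARP6, ZC3HAV1 and PARP16 were also called higher with the block, with log2 fold changes of 0.19, 0.19 and 0.29. The block fit called 4 of the 13 higher and 1 lower (38.5% together), where it called 24.3% of all tested genes. The tankyrases TNKS (−0.04) and TNKS2 (−0.01) were not called in either fit. PARP4, PARP6, ZC3HAV1, PARP16, the tankyrases, HPF1, NAMPT, NMNAT2, PAXIP1 and LIG1 are named because of their roles or values, outside the rule for named genes.

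**Figure D5:**
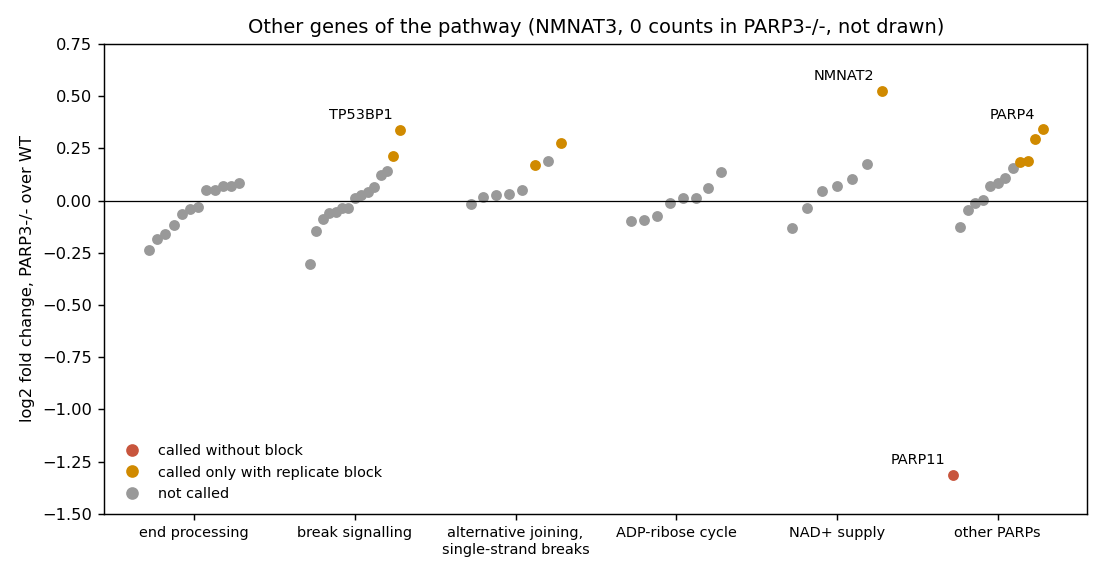
Log2 fold change, PARP3-/- over WT, of the tested genes of the 6 pathway lists, sorted within each list, in red where called without the replicate block, in orange where called only with it and in grey otherwise. PARP11 stands alone at −1.31, most other points lie between −0.30 and 0.34, and NMNAT3, with 0 counts in PARP3-/-, is not drawn.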

How the data were processed

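Total RNA, depleted of ribosomal RNA per the extraction protocol although the labels name polyA RNA, was made into strand-specific libraries and sequenced as 50 bp single-end reads. The authors trimmed reads with cutadapt 1.10, dropped those under 40 bp, removed ribosomal and spike-in reads with Bowtie2 2.2.8, aligned the rest to hg38 with STAR 2.5.3a and counted them per Ensembl 91 gene with HTSeq 0.6.1p1 in union mode. The strand setting of the counting was not given in the sources used here. Union mode drops reads on overlapping genes, and reads on near-identical copies can be lost. The deposited counts per gene are raw and not normalized. The deposited median transcript length of each gene, in bases, was used in 1 alternative only. A further 12 columns of per-sample values and the authors' columns of their own comparison (log2 fold change, p-value and adjusted p-value) were not used.

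The counts were tested with edgeR 4.0.16 in R 4.3.3 (TMM, filterByExpr with a minimum count of 10, quasi-likelihood test, genotype only), fitted on all genes and adjusted over 17144. Standard errors were derived from each gene's F statistic, with 95% intervals. Log2 values of CPM used a prior count of 2, except the log2 ratios of replicate 1 to the mean of replicates 2 and 3, which used none. Libraries held 29692065 to 46010369 counts. The labels number the replicates 1 to 3 in each genotype, and libraries with the same number deviated together from their genotype means, with correlations across genes of 0.676, 0.517 and 0.242. Replicates 2 and 3 were not clearly told apart by this, since WT replicate 2 with PARP3-/- replicate 3 gave 0.41 and WT replicate 3 with PARP3-/- replicate 2 gave 0.264. All pairs that joined replicate 1 to another number were below 0. The replicate number was fitted as a block beside the main fit. The script was tested on simulated data. Ratios of 2 genes used exact two-sided permutation tests over libraries. Alternatives were DESeq2 1.42.0, its size factors, other filters, a stricter call, the block, each library left out, other windows and other lengths. Leaving out replicate 1 of both genotypes and the deposited median length were added after seeing the data. Exon lengths, starts and sequences came from GENCODE 44 and the hg38 genome, and promoters from RefSeq.

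Named were all 10 genes, the called genes of each list or otherwise the 2 of smallest p, the 2 nearest tested genes on each side of PARP3 and the 3 genes of most similar pattern. Other names were chosen after their values were seen. The 10 genes and the lists were chosen with earlier results of these data known. DNTT, SHLD3 and PARP15 of the lists were not analysed here.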

Additional observations from a re-analysis of the deposited data

How the results depend on the processing

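Calls depended more on the replicate block and on the presence of replicate 1 than on the scaling or the filter. Without the block and with all libraries 0 of the 9 genes was called. The replicate block gave 3, leaving out replicate 1 gave 1, and both together gave 2. With the block the log2 fold change was −0.39 for PARP3, 0.22 for PARP1 and −0.22 for LIG4, each now called. It was 0.17 for PARP1 and −0.28 for LIG4 with the block and without replicate 1, and −0.28 for LIG4 without replicate 1 alone. The block changed no other call of the 9. Among the pathway lists, against 2 lower and 0 higher, the higher genes were 1 with DESeq2, 1 with a mean count of at least 50, 1 with size factors by the median of ratios, 9 with the block, 7 without replicate 1 and 12 with both. The lower genes were 1 with a mean count of at least 50, 0 under the stricter call, and 1 to 2 with a library left out, PARP11 being lost without PARP3-/- replicate 2 or 3. Over all genes, against 571 lower and 234 higher, DESeq2 gave 871 and 475, the block 2143 and 2023, the stricter call 76 and 6, and the block without replicate 1 2649 and 2501. A mean count of at least 50 gave 331 lower. Leaving out libraries gave 281 to 1739 lower and 49 to 1536 higher, the highest of each without replicate 1 of both genotypes.

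With a library left out, PARP1 ran from 0.048 to 0.33 and PARP3 from −0.54 to −0.20, and the ratio of PARP3 to PARP1 ran from −0.84 to −0.24, the values nearest 0 being those without WT replicate 1. Signs turned in values near 0. PARP2 ran from −0.13 to 0.14 with a library left out and was −0.002 without replicate 1, with and without the block. XRCC5 ran from −0.054, without WT replicate 1, to 0.24, and XRCC6 from −0.12 to 0.20, being below 0 without WT replicate 1 (−0.12), PARP3-/- replicate 2 (−0.040) or PARP3-/- replicate 3 (−0.023). PARP2 was below 0 without the same libraries (−0.13, −0.081 and −0.040). The ratio of PRKDC to XRCC5 ran from −0.20 to 0.19 with a library left out and was 0.19, 0.10 and 0.064 without these 3. LIG4 ran from −0.33 to −0.11 with a library left out and kept its sign. Neighbourhood medians moved for APLF (−0.021 within 5 Mb), XRCC4 (−0.003 within 5 Mb), XRCC5 (0.13 within 5 Mb), XRCC6 (−0.003 within 500 kb) and PRKDC (−0.43 within 500 kb and 0.004 within 5 Mb). With the longest transcript, WT levels in RPKM were 243 for XRCC5, 61.6 for PRKDC, 77.6 for PARP1, 20.1 for PARP2, 11 for PARP3, 11 for XRCC4 and 3.70 for APLF. With the deposited median length they were 1501 for XRCC5, 205 for XRCC6, 1259 for PRKDC, 859 for PARP1, 55.4 for PARP2, 26.1 for PARP3, 11.9 for XRCC4, 6.22 for LIG4, 6.64 for APLF and 0.137 for NHEJ1. These lengths differ by construction. The cause of the other changes was not tested. With 3 libraries per genotype, no exact test of a single value can go below 0.1. NHEJ1, at 2 to 9 counts per library, was too low to be compared.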
